A study of Homo sapiens with 6 samples.

Results

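Chemokine ligand genes encode small secreted proteins, and 32 of them were followed here through the chromatin marks H3K27me3 and H3K4me3. They were taken by name from the 56638 genes of a ChIP-seq count table, as every gene called CCL or CXCL with a number, an L and a further number allowed, together with CX3CL1, XCL1 and XCL2. The names matched 44 genes, of which 32 had at least 1 input count and 12 had none. All cells were G401, an established line from a malignant rhabdoid tumor that lacks SMARCB1. They received DMSO or 3 µM MAK683, an inhibitor of PRC2 that binds its EED subunit, and were fixed after 3 days. For each treatment 1 library was made of H3K27me3, 1 of H3K4me3 and 1 of the input chromatin that saw no antibody, which gave 6 libraries of 13308099 to 21281877 counts. Without replicates no test between treatments was possible, so intervals below cover counting error only and the spread between cultures is unknown. Both inputs lacked reads over SMARCB1. Values are reads over whole genes, and no spike-in scaling was applied here. They show how a library's reads were distributed and not the absolute amount of a mark. MAK683 held 41.0% of all H3K27me3 counts and 48.0% of all H3K4me3 counts of the treatment pair, and a gene that followed its library would show the same share.

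Chemokines guide leukocytes along gradients, and they bind seven-transmembrane receptors. Most human CXC genes lie together on chromosome 4 and most CC genes on chromosome 17, where copies arose by tandem duplication. Their transcription is switched on by NF-κB or interferon signals in many cell types, and several belong to the senescence-associated secretory phenotype (SASP). PRC2 places H3K27me3, which accompanies silent genes, whereas H3K4me3 marks the starts of genes that are active or poised. CCL2 and CCL25 were measured as SASP transcripts in the study, which also names CXCL9 and CXCL10 as genes that PRC2 silences in other tumors.

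The 12 named genes without input counts could not be measured. CXCL10, CXCL11, CXCL14, CXCL17, CCL5, CCL15 and CCL27 lie wholly inside the spans of other annotated genes, and CCL3 has 1.83% of its span unshared. CCL3L1, CCL3L3, CCL4L1 and CCL4L2 are near-identical copies of CCL3 and CCL4, and of these 4 genes CCL4L1 had 6 counts over all libraries, CCL3L3 had 1 and the others had 0. Of the 32 genes left, 7 are on chromosome 4, 12 on chromosome 17 and 13 elsewhere. CCL14, which is mostly overlapped by other genes (9.9% unshared), had 1 input count. The other 31 genes had at least 20 input counts in the 2 input libraries together, and their levels over input are described. Here a level over input is the ratio of a gene's CPM (its counts scaled to a common library size) in a mark to its CPM in the input of the same treatment, with 0.05 CPM added to each.

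Runs of neighboring chemokine genes were set apart wherever a gap exceeded 1 Mb. On chromosome 4 (GRCh37, the build hg19 used by the authors), CXCL6, CXCL1, CXCL5, CXCL3 and CXCL2 form a run from 74702357 to 74964913. These 5 genes encode chemokines that attract neutrophils. On chromosome 17, CCL2, CCL7, CCL11, CCL8, CCL13 and CCL1 run from 32582293 to 32690252, and CCL16, CCL14, CCL23, CCL18 and CCL4 from 34303529 to 34433014. The first of these runs holds monocyte chemoattractants, an eotaxin and CCL1, the other macrophage inflammatory proteins and their relatives. CXCL9 and CXCL13 stand apart on chromosome 4, and CXCL16 on chromosome 17.

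Promoters of the chromosome 4 run are printed because these 5 genes had the highest combined H3K27me3 and include the largest gain of H3K4me3. Each line gives the 250 bases before the RefSeq start of the gene, 5′ to 3′ on the gene's strand. At CXCL3 and CXCL6, and barely at CXCL2, these bases overlap the annotated gene span that was used here for positions. Sequences are RefSeq entries of GRCh38.p14, and the coordinates are those of their only exact match on GRCh37. Capitals mark an NF-κB type motif, GGG followed by any 2 bases and TTTCC, which was searched on both strands.
CXCL6, chr4:74702145-74702394, plus strand: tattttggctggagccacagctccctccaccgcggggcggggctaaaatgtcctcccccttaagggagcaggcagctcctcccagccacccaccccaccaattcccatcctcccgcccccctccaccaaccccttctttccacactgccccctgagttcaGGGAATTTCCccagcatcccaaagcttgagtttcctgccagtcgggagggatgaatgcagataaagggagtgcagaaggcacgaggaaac
CXCL1, chr4:74734860-74735109, plus strand: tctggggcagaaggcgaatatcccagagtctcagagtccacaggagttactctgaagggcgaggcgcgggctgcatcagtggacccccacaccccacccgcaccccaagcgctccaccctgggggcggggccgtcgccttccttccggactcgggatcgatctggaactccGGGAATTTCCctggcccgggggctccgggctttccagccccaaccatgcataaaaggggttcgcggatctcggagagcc
CXCL5, chr4:74864395-74864644, minus strand: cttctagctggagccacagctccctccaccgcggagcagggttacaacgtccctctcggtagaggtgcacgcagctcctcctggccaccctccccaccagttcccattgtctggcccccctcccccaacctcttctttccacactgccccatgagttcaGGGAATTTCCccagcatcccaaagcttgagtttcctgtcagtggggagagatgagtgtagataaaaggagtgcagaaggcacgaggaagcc
CXCL3, chr4:74904407-74904656, minus strand: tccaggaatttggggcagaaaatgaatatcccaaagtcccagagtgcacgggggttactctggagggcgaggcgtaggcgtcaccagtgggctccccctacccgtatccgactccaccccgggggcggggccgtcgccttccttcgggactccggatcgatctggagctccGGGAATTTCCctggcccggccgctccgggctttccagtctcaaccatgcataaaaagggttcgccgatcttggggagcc
CXCL2, chr4:74964913-74965162, minus strand: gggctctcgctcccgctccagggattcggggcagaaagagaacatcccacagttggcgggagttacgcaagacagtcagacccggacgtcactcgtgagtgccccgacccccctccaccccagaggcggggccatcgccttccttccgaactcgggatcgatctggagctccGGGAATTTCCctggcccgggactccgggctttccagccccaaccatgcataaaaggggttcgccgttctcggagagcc
All 5 promoters held the motif once. It began 79 bases before the start at CXCL1 and CXCL3, 78 at CXCL2, 90 at CXCL6 and 91 at CXCL5. RefSeq had a promoter for 22 of the 32 genes, and 6 of these 22 (27.3%) held the motif, the other being CCL20. Among all 27305 promoters of this length, 1.73% held it. The 5 genes of the run are related neighbors with similar promoters, so their matches are not independent of each other. TATAAA, the letters of a TATA box, was found at any position on either strand in 9 of the 22 (40.9%) and in 11.1% of all promoters. It began 191 bases before the start at CXCL9 and 181 at CXCL13, against 15 to 31 at the others of the 9. An interferon response type motif, GAAA followed by any 2 bases and GAAA, was found in 1 of the 22, CXCL9, and in 3.07% of all promoters. It was also found at CXCL10, which had no input counts. CpG dinucleotides numbered 18 at CXCL1, 20 at CXCL2 and 19 at CXCL3, but 6 at CXCL5 and 6 at CXCL6. The median was 3 over the 22 chemokine promoters and 11 over all promoters. The longest stretch of bases shared by these promoters was 42 between CXCL1 and CXCL2, 37 between CXCL2 and CXCL3 and 25 between CXCL1 and CXCL3. Reads that match several of these genes equally well would leave their counts uncertain, and such reads were not examined. A motif match is a description of the letters and not a binding site.

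In DMSO, H3K27me3 lay above the input at most chemokine genes of both chromosomes and below it at most of those elsewhere. At least 1.5 times input was reached by 20 of 31 genes, against 20.5% of 29528 genes in the whole table. These 20 comprised all 5 genes of the chromosome 4 run, 6 of 6 in the first run of chromosome 17, 4 of 4 measured in the second run, CXCL13, and 4 of 13 genes elsewhere. The median log2 level was 2.08 over 7 genes on chromosome 4, 0.77 over 11 genes on chromosome 17 and -0.43 over 13 genes elsewhere, whereas the median of all genes was -0.66. Genes of a run are neighbors and not independent of each other, and the difference between the places was not tested. Summed over genes, without a pseudocount, the chromosome 4 run had 3.94 times the input level (95% exact interval from 3.41 to 4.56), with 1040 H3K27me3 counts against 232 input counts. In the same way the first run of chromosome 17 had 2.57 times input (from 2.17 to 3.04), and the second 1.71 times (from 1.47 to 2.00). Genes elsewhere summed to 1.11 times input (from 1.05 to 1.17), a direction set by CXCL12 alone. Without CXCL12, a choice made after seeing its counts, the other 12 genes summed to 0.754 times input (from 0.701 to 0.811).

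**Figure D1:**
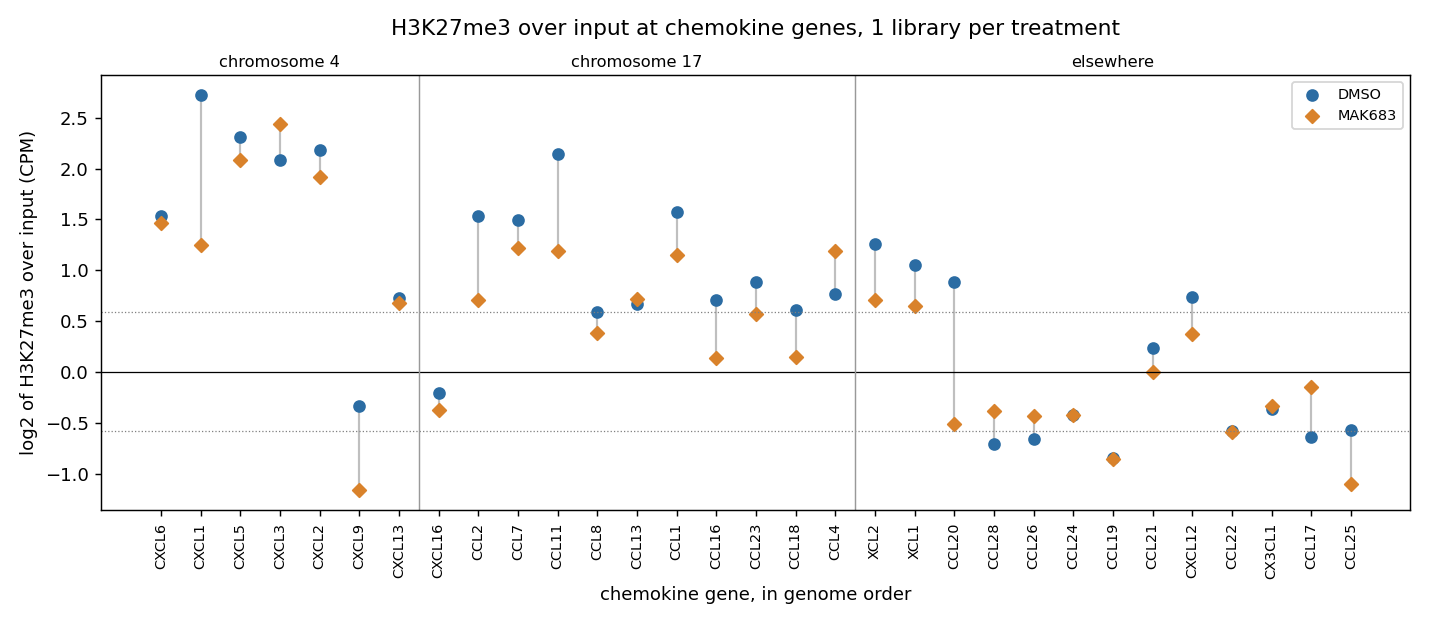
Log2 of H3K27me3 over input for the 31 chemokine genes with at least 20 input counts, in genome order within chromosome 4, chromosome 17 and elsewhere. Circles are the DMSO library, diamonds the MAK683 library, and dotted lines mark 1.5-fold. The 5 genes from CXCL6 to CXCL2 lie between 1.53 and 2.73 in DMSO, and most genes elsewhere lie below 0.

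CXCL1, a neutrophil attractant, had the highest level, 6.62 times input in DMSO from 141 H3K27me3 and 18 input counts. In MAK683 it had 69 H3K27me3 and 42 input counts, 2.38 times input. The lower ratio thus moved with both the mark and the input. Its top rank in DMSO likewise rests on the 18 input counts there, fewer than in MAK683. CXCL5 (151 and 26 counts in DMSO, 103 and 35 in MAK683) stood at 4.97 and 4.23 times input. CXCL2 (174 and 33 counts, then 87 and 33) stood at 4.54 and 3.78 times input. Within the reads of each library, these genes lay far above the input level in both treatments. CXCL3 had 191 H3K27me3 and 39 input counts in DMSO and 121 and 32 in MAK683, which gave 4.23 and 5.41 times input. CXCL6, the longest gene of the run, had 383 and 116 counts in DMSO and 254 and 134 in MAK683, or 2.89 and 2.77 times input.

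On chromosome 17 the highest level in DMSO was that of CCL11, or eotaxin, which recruits eosinophils. CCL11 had 134 H3K27me3 and 26 input counts in DMSO (4.42 times input) and 71 and 45 counts in MAK683 (2.29 times). CCL1 stood at 2.97 times input in DMSO and 2.22 in MAK683. CCL7, which recruits monocytes, stood at 2.82 and 2.33. CCL2, the main monocyte chemoattractant, had 84 H3K27me3 and 25 input counts in DMSO and 54 and 48 in MAK683, so that its level was 2.89 and 1.64 times input. CCL8 and CCL13 in the same run were lower, and the higher of them, CCL13, stood at 1.59 times input in DMSO. The second run was more even, from 1.52 times input at CCL18 to 1.84 at CCL23. MAK683 held 56.1% of the input counts of the first run (interval from 51.3% to 60.8%) and 56.3% of those of the second (from 52.1% to 60.4%), and both intervals include the 53.7% of the library totals.

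Among the lowest levels in DMSO were CCL19 (0.558 times input), CCL28 (0.611), CCL26 (0.633), CCL17 (0.644) and CCL22 (0.668). CCL19 guides T cells and dendritic cells in lymph nodes, CCL28 acts at mucosal surfaces, and CCL17 and CCL22 share the receptor CCR4. Only CCL28, CCL26, CCL17 and CCL19 were at least 1.5-fold below the input, in a table where 53.4% of all genes were. CCL25, a gut and thymus chemokine, had 88 H3K27me3 and 115 input counts in DMSO and 47 and 149 in MAK683, or 0.675 and 0.466 times input. CXCL9, an interferon-induced T cell attractant with 25.1% of its span unshared, had only 16 H3K27me3 and 18 input counts in DMSO and 10 and 34 in MAK683. Its ratio of 0.791 in DMSO rests on these few reads. Above the input outside the runs were CXCL13, a B cell attractant (1.65 times), the lymphotactins XCL1 (2.07) and XCL2 (2.39), and CCL20 (1.85). CXCL12, the ligand of CXCR4 that holds stem cells in bone marrow, was above it as well (1.67). So was CCL21 (1.18), on only 19 H3K27me3 and 14 input counts in DMSO.

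By function, all 5 neutrophil-attracting CXC genes and 6 of 8 monocyte chemoattractant and eotaxin genes reached 1.5 times input, against 20.5% of all genes. The exceptions among the latter were CCL24 and CCL26 on chromosome 7. Counted with these 8 genes was CCL1, which lies in the first run of chromosome 17 but attracts T cells. IL8 (CXCL8) also attracts neutrophils but is missed by the name rule and lies outside the run. It stood at 1.01 times input in DMSO, short of the limit, but at 1.70 times in MAK683. Of 7 chemokines made constitutively in lymphoid or other tissues, CXCL12 and CXCL13 reached 1.5 times input, a share of 28.6%. For the genes taken by name, the sorting by function and by place overlaps almost wholly, and the data cannot tell them apart.

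H3K27me3 at the runs was set against protein-coding genes within 500 kb. Around the chromosome 4 run, 4 of 5 genes before it and 2 of 3 after it reached 1.5 times input. Among them were ALB, AFP, AFM and RASSF6 on one side and EPGN and EREG on the other, with log2 levels from 0.82 to 1.12, all under the lowest gene of the run. IL8 (CXCL8), a neutrophil attractant that the name rule misses, lies just before CXCL6 and stood at the input level in DMSO, with 46 H3K27me3 and 40 input counts. In MAK683 it had 48 and 41 counts, or 1.70 times input. PF4, PF4V1 and PPBP, platelet chemokines inside the run, had 8.34, 4.38 and 2.35 times input, on only 8, 16 and 16 input counts. The first run on chromosome 17 sits between ASIC2 (log2 level of 1.02, averaged over a very long gene) and TMEM132E (1.86). Around the second run, by contrast, none of 11 genes before and 3 genes after reached 1.5 times input, and their medians were -0.77 and -1.23.

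**Figure D2:**
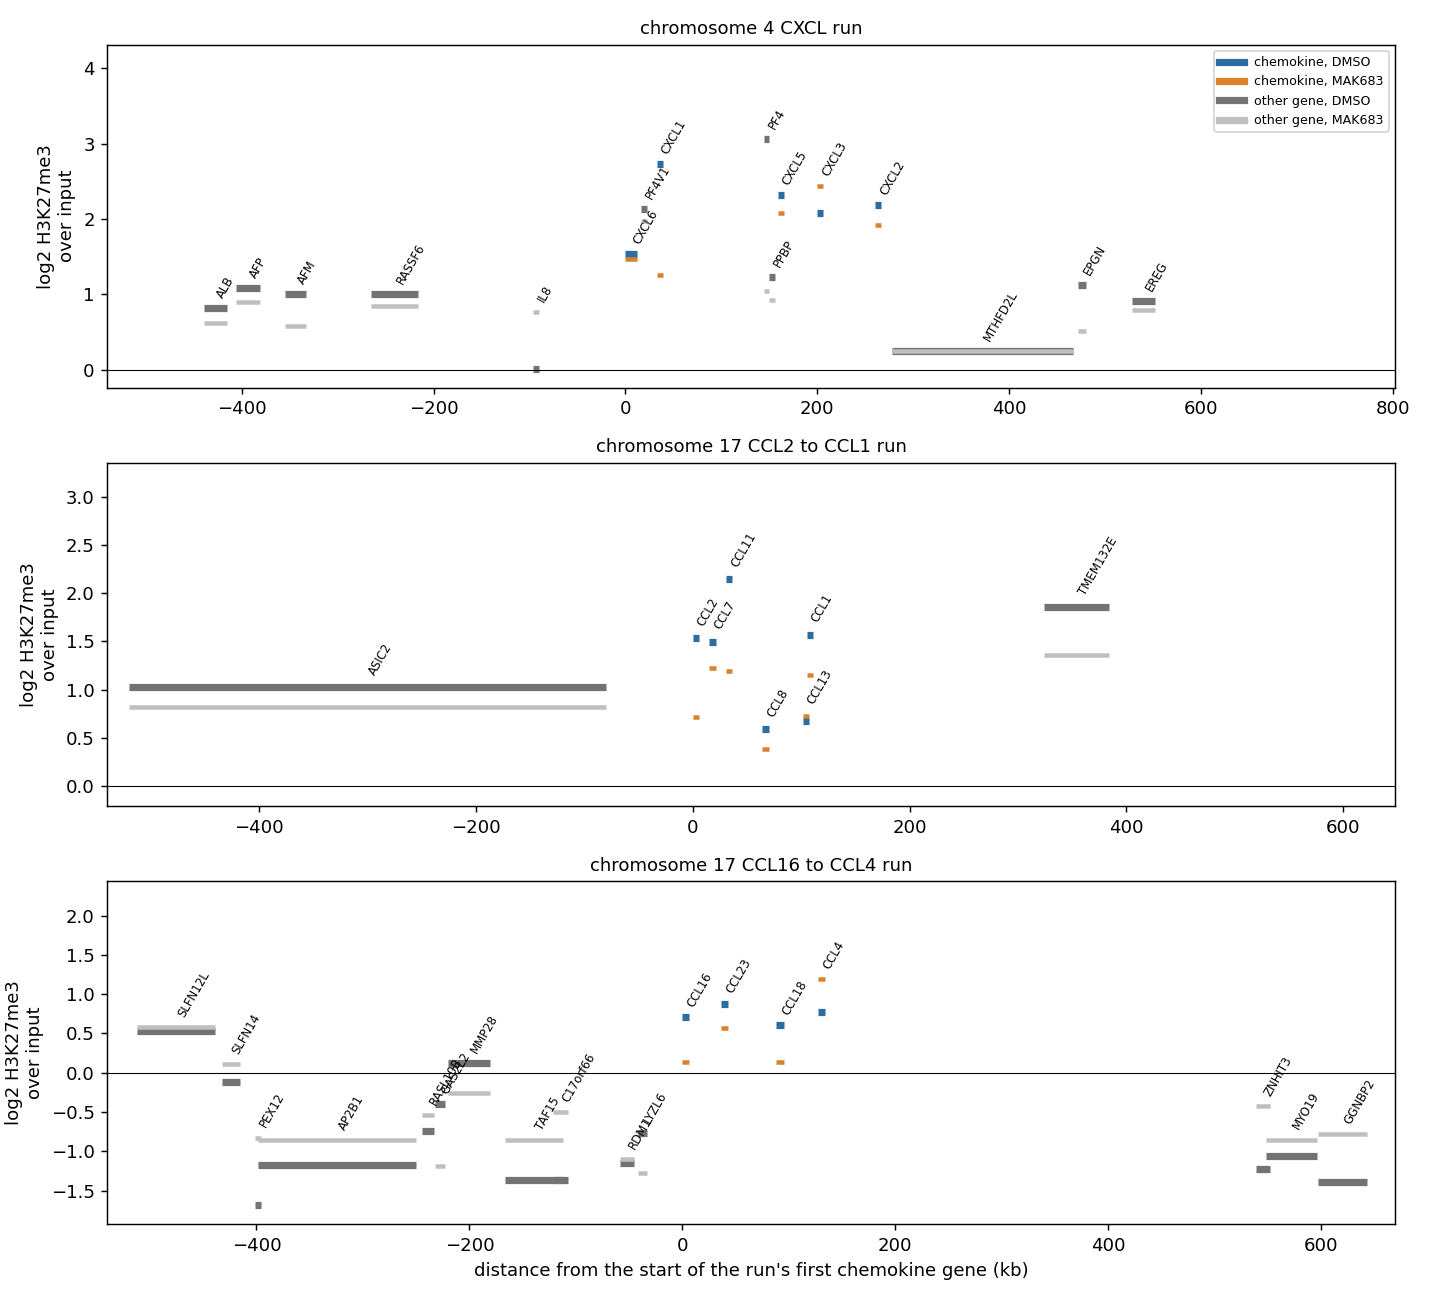
Log2 of H3K27me3 over input along the 3 runs, against the distance in kb from the start of the first chemokine gene. Blue and orange bars are chemokine genes in DMSO and MAK683, dark and light grey bars other protein-coding genes in DMSO and MAK683, and bars shorter than 6 kb are drawn at 6 kb. The chromosome 4 run stands above neighbors that are themselves above input, and the lower run on chromosome 17 stands among genes below input.

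Every one of the 32 genes had fewer H3K27me3 reads after MAK683, as did 85.3% of all genes in this smaller library. To see past the library size, changes were taken as log2((MAK683 + 1)/(DMSO + 1)) less the median over 29931 genes with at least 10 counts in either library, which was -0.44. Relative to that median gene, 26 chemokine genes were lower (against 50% of all genes) and 6 higher (against 49.9%), with a median of -0.27. All 7 genes on chromosome 4 and all 12 on chromosome 17 were lower, with medians of -0.21 and -0.34, and 7 of 13 elsewhere, with a median of -0.02, although CXCL3 and CCL4 were higher when taken over input. The sizes were small. Only XCL1 and CCL20 fell 1.5-fold or more, 2 of 32 genes against 8.90% of all genes, and none rose as much, against 9.03%. Taken over input, 8 genes fell 1.5-fold or more (CXCL1, CCL20, CCL11, CXCL9, CCL2, CCL16, XCL2 and CCL25). XCL1 was no longer among them, at -0.48. The share of all genes was not computed for changes over input, so these 8 genes cannot be set against the 8.90%.

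The share of H3K27me3 counts found in MAK683 had an interval below that of the library totals at 5 genes, against 13.6% of all genes. XCL1, which attracts cross-presenting dendritic cells, had 126 counts in DMSO and 54 in MAK683, a share of 30.0% (from 23.4% to 37.3%). At CXCL1 the share was 32.9% (from 26.5% to 39.7%) and at CXCL2 33.3% (from 27.6% to 39.4%). CXCL13 fell from 2502 to 1540 counts, a share of 38.1% (from 36.6% to 39.6%), and CXCL12 from 1894 to 1153, a share of 37.8% (from 36.1% to 39.6%). The last 2 intervals are narrow because the counts are high, although the changes are modest. CCL17 was the only gene with an interval above the library share, against 22.7% of all genes, with 125 and 118 counts, a share of 48.6% (from 42.1% to 55.0%). Over summed counts, the interval lay below the library share for the chromosome 4 run (37.9%, from 35.5% to 40.2%) and for the first run of chromosome 17 (36.0%, from 32.8% to 39.3%). For the second run it included that share (37.7%, from 34.3% to 41.1%), and for the genes elsewhere it ended just short of it (39.5%, from 38.2% to 40.8%). Without CXCL12 the genes elsewhere had a share of 41.6% (from 39.6% to 43.6%), which includes the library share. Within the reads of the MAK683 library, H3K27me3 over input was 3.37 times (from 2.92 to 3.89) in the chromosome 4 run. It was 1.89 times (from 1.59 to 2.24) in the first chromosome 17 run and 1.34 times (from 1.14 to 1.57) in the second. The paper reports a massive loss of H3K27me3 across the genome in G401 cells given MAK683. These ratios do not show how much of the mark was left. At least 1.5 times input was reached by 14 of 31 genes in MAK683, against 18.1% of all genes, and 4 were as far below it, against 44.6%. Taken over input, the H3K27me3 change relative to the median gene was -1.56 at CXCL1 and -0.90 at CCL2, but 0.27 at CXCL3 and 0.34 at CCL4, so that the lower values of these last genes depended on leaving out the input.

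**Figure D3:**
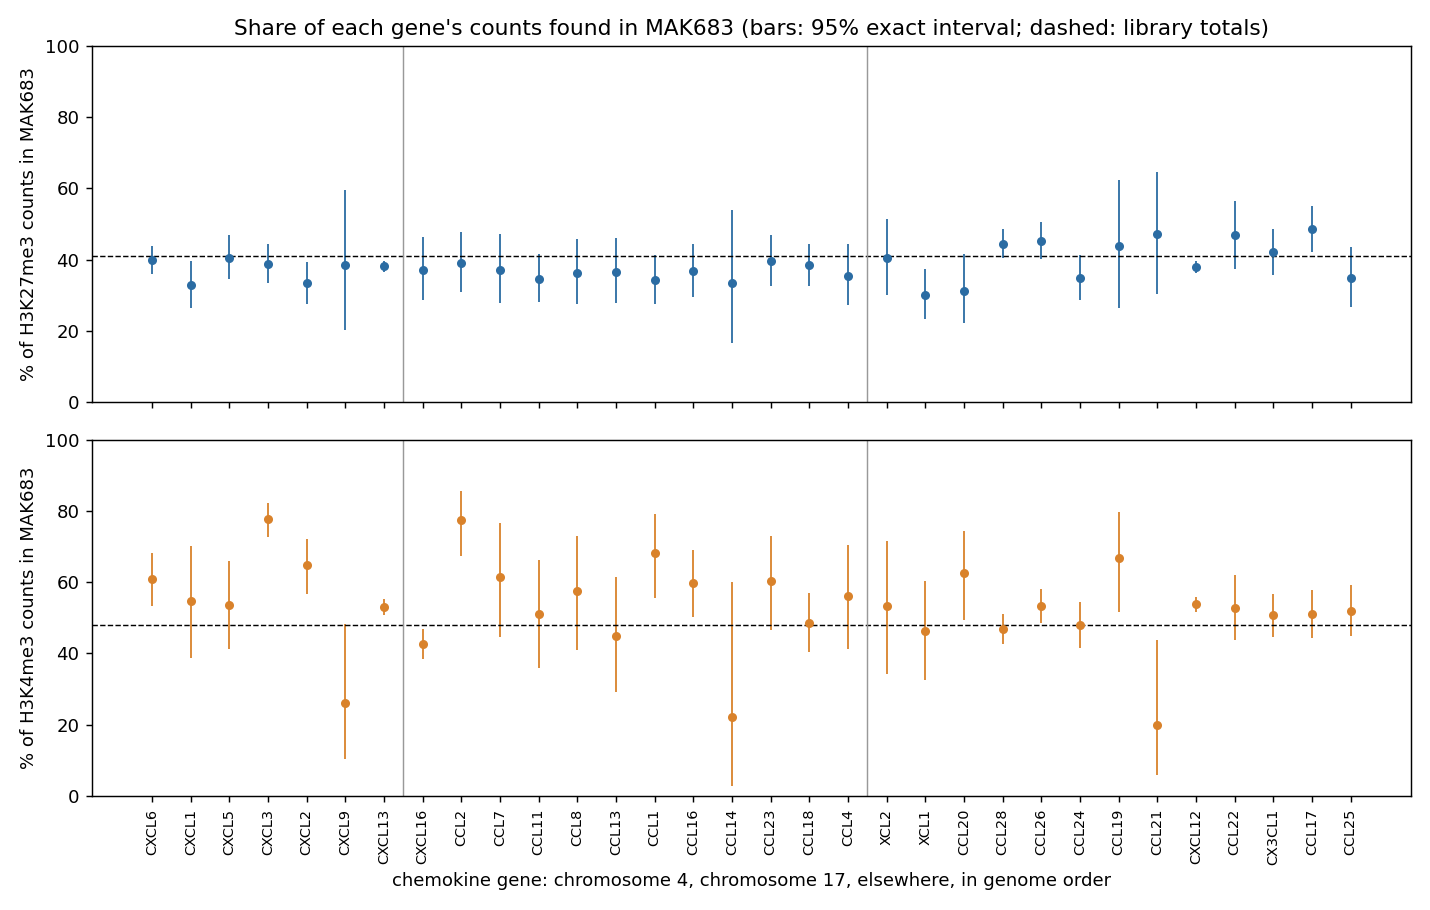
Percent of each gene's H3K27me3 counts (top) and H3K4me3 counts (bottom) found in the MAK683 library, for the 32 chemokine genes in genome order within chromosome 4, chromosome 17 and elsewhere. Bars are 95% exact intervals and dashed lines the shares of the library totals, 41.0% and 48.0%. H3K27me3 shares stay near the line, and the H3K4me3 shares of CXCL3 and CCL2 stand at 77.7% and 77.5%.

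H3K4me3 in DMSO, taken over whole genes, was low at nearly all chemokine genes. Reads at the starts of genes were not counted apart, so these levels do not show the mark at the start alone. Only CXCL16 reached 1.5 times input, 1 of 31 genes against 28.7% of all genes, and 21 were at least 1.5-fold below input, against 39.1%. The median log2 level was -0.72 over chemokine genes and -0.31 over all genes. CXCL16, a membrane-bound chemokine and scavenger receptor, had 315 H3K4me3 and 77 input counts in DMSO and 234 and 86 in MAK683, or 3.21 and 2.69 times input. Its H3K27me3 was below input in both treatments, at 0.869 and 0.770 times. CXCL3 and CXCL2 came next in DMSO at 1.37 and 1.29 times input, followed by CXCL5 (0.945) and CCL21 (0.910).

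In MAK683, H3K4me3 counts rose most at CXCL3 and CCL2 relative to the median gene, and at CXCL3 also when taken over input. CXCL3 went from 68 to 237 H3K4me3 counts while its input went from 39 to 32, so that its level rose from 1.37 to 7.18 times input. MAK683 held 77.7% of its H3K4me3 counts (from 72.6% to 82.3%), and its log2 change relative to the median gene was 1.90. CCL2 went from 20 to 69 counts, a share of 77.5% (from 67.4% to 85.7%) and a change of 1.85, but its input also went from 25 to 48 counts. Its H3K4me3 level thus moved from 0.645 to 1.42 times input. Next was CCL1, which attracts T cells through CCR8, with 21 and 45 counts, a share of 68.2% (from 55.6% to 79.1%) and a change of 1.18. CXCL2 went from 54 to 99 counts on 33 input counts in each treatment, which raised its level from 1.29 to 2.93 times input (change of 0.98, share from 56.6% to 72.3%). CXCL6 went from 70 to 109 counts, a share of 60.9% (from 53.3% to 68.1%). CXCL1, whose promoter is close to that of CXCL2 in sequence and CpG number, had 19 and 23 counts, and its share of 54.8% (from 38.7% to 70.2%) included the library share. CXCL3 and CXCL2 thus differed from CXCL1 in value. Any reads shared among the 3 genes, which were not examined, would leave the counts of each uncertain. Taken over input, the H3K4me3 change relative to the median gene was 2.37 at CXCL3, 1.21 at CCL4, 1.17 at CXCL2, 1.16 at CCL1, 1.12 at CCL2 and -0.62 at CXCL1. After MAK683, 3 of 31 genes reached 1.5 times input (CXCL3, CXCL2 and CXCL16), against 28.1% of all genes, and 15 were at least 1.5-fold below it, against 32.3%.

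**Figure D4:**
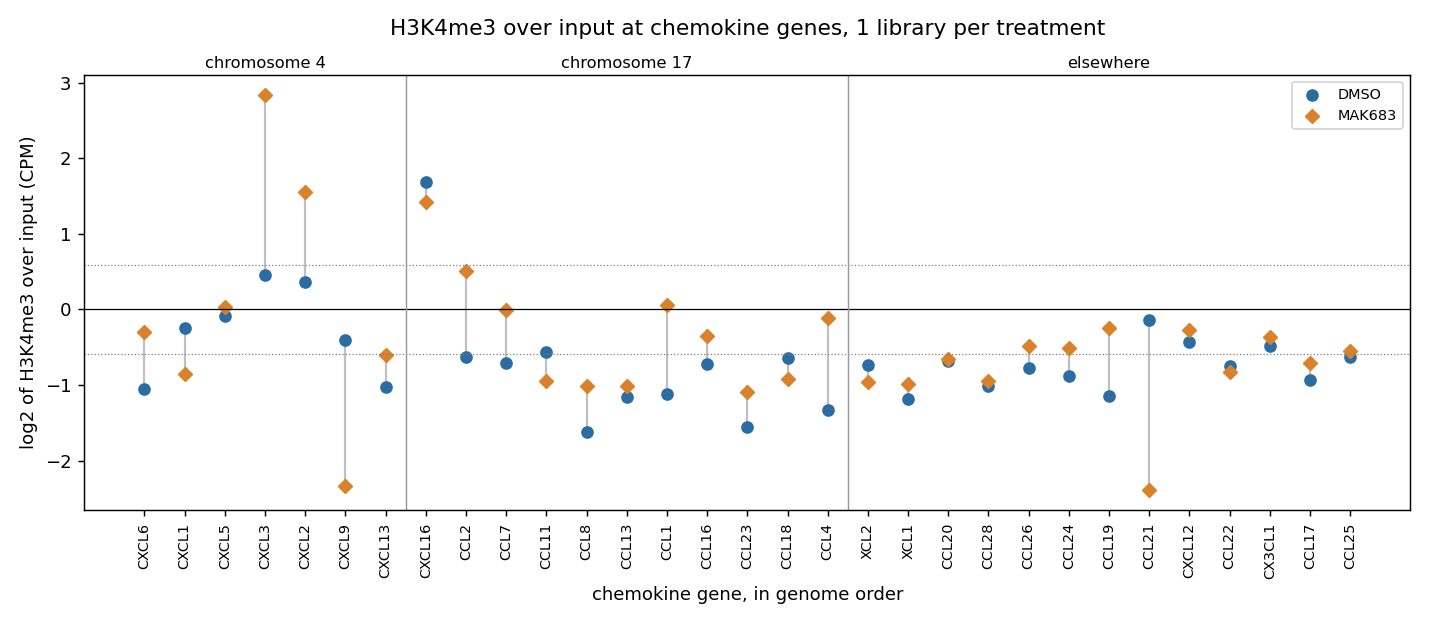
Log2 of H3K4me3 over input for the same 31 genes, with circles for the DMSO library, diamonds for the MAK683 library and dotted lines at 1.5-fold. CXCL3 moves from 0.46 to 2.84 and CXCL2 from 0.36 to 1.55, and CXCL16 lies above the dotted line in both treatments.

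H3K4me3 reads were fewer in MAK683 at 8 of 31 genes, against 61.9% of all genes. Relative to the median gene, 24 genes were higher and 7 lower, against 50% each. A rise of 1.5-fold or more was seen at 10 of 31 genes, against 9.94% of all genes, and a fall of that size at 2, against 5%. The 10 genes were CXCL3, CCL2, CCL1, CCL19, CXCL2, CCL20, CCL7, CXCL6, CCL23 and CCL16. Taken over input, CCL20 (0.02), CCL16 (0.35) and CCL23 (0.45) no longer reached 1.5-fold, whereas CCL4 (1.21) and CCL8 (0.59) did. Only 2 of the 10, CCL19 and CCL20, lie outside the runs of chromosomes 4 and 17. CCL19 had 16 and 32 counts, a share of 66.7% (from 51.6% to 79.6%), and CCL20 had 24 and 40 (62.5%, from 49.5% to 74.3%). CCL7 (15 and 24 counts) and CCL23 (23 and 35) had intervals that included the library share. The decreases were at CXCL9 (17 to 6 counts) and CCL21 (16 to 4), both under a mean of 20 counts. CCL21 lies wholly inside another annotated gene, and its interval of 5.73% to 43.7% lay below the library share, whereas that of CXCL9 (from 10.2% to 48.4%) included it. Where the mean count was 20 or more, the largest decreases were at CXCL16 (0.31 on the log2 scale, share from 38.4% to 46.9%), CCL13 and XCL1. Summed over genes, MAK683 held 67.6% of the H3K4me3 counts of the chromosome 4 run (from 64.1% to 70.9%), 63.3% in the first run of chromosome 17 (from 57.8% to 68.6%) and 54.1% in the second (from 48.9% to 59.2%). In the chromosome 4 run most of the added counts were those of CXCL3.

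Of the 31 genes, 11 had a share of H3K4me3 with an interval above that of the library totals, against 19.5% of all genes, and 2 (CXCL16 and CCL21) one below it, against 21.3%. CXCL13 (827 to 934 counts), CXCL12 (936 to 1088) and CCL26 (207 to 237) were among them on high counts, with log2 changes of 0.29, 0.33 and 0.31. CCL25 went from 94 to 102 counts, and its share of 52.0% (from 44.8% to 59.2%) included the library share. Without the input, CXCL3 and CCL2 had H3K27me3 changes of -0.21 and -0.19, smaller than those of XCL1 (-0.77), CCL20 (-0.67) and CXCL1 (-0.58), whose H3K4me3 changes were -0.09, 0.83 and 0.38. Taken over input this order did not hold, since the H3K27me3 change was -0.90 at CCL2 and -0.48 at XCL1, and the H3K4me3 change at CXCL1 was -0.62.

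**Figure D5:**
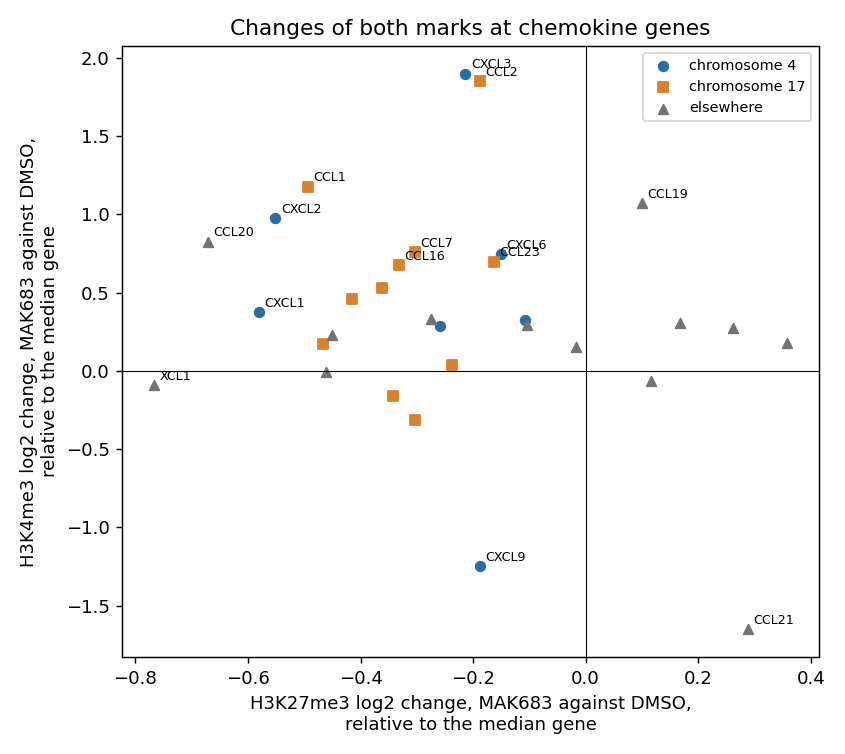
Log2 change of H3K4me3 against that of H3K27me3 for 31 chemokine genes, each MAK683 against DMSO relative to the median of all genes, with markers for chromosome 4, chromosome 17 and elsewhere. Genes on both chromosomes lie left of 0 on the H3K27me3 axis (CXCL3 and CCL4 only as long as the input is left out), and CXCL3 (1.90) and CCL2 (1.85) lie highest.

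Of 23 chemokine receptor genes in the table, 16 had at least 20 input counts, and 8 of these had H3K27me3 of at least 1.5 times input in DMSO (median log2 level of 0.60), against 20.5% of all genes. The 8 genes were CXCR4, ACKR3, CXCR1, CCR2, CCRL2, CCR3, XCR1 and CXCR2. Among them XCR1, CCR3, CCR2 and CCRL2 are neighbors on chromosome 3, and CXCR1 and CXCR2 on chromosome 2. Such neighbors are not independent of each other, so the 8 genes stand for fewer places. CXCR4, the receptor of CXCL12, was the highest at 8.16 times input, with 406 H3K27me3 and 43 input counts in DMSO and 261 and 72 in MAK683. It also had H3K4me3 of 3.03 times input in DMSO, and its H3K4me3 counts went from 167 to 224, a share of 57.3% (from 52.2% to 62.2%). ACKR3, a scavenging receptor for CXCL12, had 566 and 292 H3K27me3 counts, 2.60 and 1.80 times input. CXCR1 and CXCR2, the receptors of the neutrophil-attracting CXC chemokines, stood at 2.52 and 1.59 times input, and CCR2, the receptor of CCL2, at 2.16. H3K4me3 of at least 1.5 times input was found at 3 of the 16 (CXCR4, CCR10 and ACKR2), against 28.7% of all genes, and the last 2 share most or all of their spans with other genes. No receptor had an H3K4me3 change of 1.5-fold or more, against 9.94% of all genes for a rise and 5% for a fall. For H3K27me3, CXCR3 (2 to 17 counts) and CCR8 (57 to 67) were at least 1.5-fold higher relative to the median gene, against 9.03% of all genes, and none was as much lower, against 8.90%. CXCR3 also had the lowest H3K27me3 level in DMSO, 0.202 times input, on 12 input counts.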

How the data were processed

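The authors trimmed reads with Trim Galore 0.4.4, aligned them to hg19 with Bowtie2 and deposited featureCounts read counts per gene as whole numbers. Their methods say that Picard 2.23.6 removed repeat sequences, and elsewhere that duplicates were removed. Their methods also describe scaling by a Drosophila spike-in as a separate step. The deposited counts were taken not to carry it, which could not be checked here. The gene annotation is not given in the sources used here. Levels over input used CPM (0.05 CPM added, 20 or more input counts in the 2 inputs together). Treatments were compared after 1 was added to each count, in genes that reached 10 counts in either library. Called means at least 1.5-fold. Positions came from GENCODE v44 lifted to GRCh37, in which 33835 names were found by symbol and 1823 by an older symbol. Input counts per kb of annotated span ran from 7.95 at CCL20 to 141 at CXCL12, with a median of 27.5, so the counted spans of these 2 genes may differ from those of this annotation. Intervals of shares are Clopper-Pearson (exact), computed with scipy 1.17.1, pandas 2.3.3 and Python 3.11.15. PCR copies left in the counts are not independent molecules, so intervals cover counting error only. The smallest level the depth can show, 3 counts, was 0.141 to 0.225 CPM. The computation was tested on simulated counts. The genes and lists were chosen with earlier results of these data known. Genes given with values were the 5 highest and lowest H3K27me3 and the 5 highest H3K4me3 levels in DMSO, the 3 largest changes of each mark with a mean of at least 20 counts, and those named by the study, with others added as examples after their values were seen. Alternatives were other scales, pseudocounts, filters, inputs and folds.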

Additional observations from a re-analysis of the deposited data

How the results depend on the processing

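No paired analysis was possible because each group had 1 library. Of 324 recomputed counts and medians, 300 stayed close to the value reported (counts within 1.5 times, medians within their interval) and 24 moved. No called value changed sign. Some of these values could not move. A 2-fold limit leaves every median as it was, and leaving out CXCL16 cannot alter the medians of chromosome 4 or elsewhere. The interval of the chromosome 4 medians spans all 7 of its genes. This tally is therefore a weak check of stability. With a 2-fold limit, genes with H3K27me3 above input numbered 11 in DMSO and 9 in MAK683, those below it 0 and 2, those with H3K4me3 below input 10 and 5, those with lower H3K27me3 in MAK683 0 and those with higher H3K4me3 4. In the counts as deposited, 23 genes had at least 1.5-fold lower H3K27me3 and the median change was -0.71 (-0.65 on chromosome 4 and -0.78 on chromosome 17). Taken over input, 8 genes had lower H3K27me3, XCL1 not among them. With a pseudocount of 1 CPM, 2 genes had H3K27me3 below input in either treatment, and the median H3K4me3 level in DMSO was -0.53 over all members and -0.54 on chromosome 17. With both inputs summed, 7 genes had H3K27me3 below input in DMSO and 2 had H3K4me3 above it. With no minimum input, 2 genes had H3K4me3 above input in DMSO, and without CXCL16, a choice made after seeing the data, 0. With at least 50 counts in either library, H3K4me3 was called higher at 5 genes and lower at 0, and it was lower at 0 genes with at least 50% of their span unshared. Shares of all genes were not computed at these other settings, so their counts stand without a background. Depth limits the ratios of short genes: CCL7 had 20 and 24 input counts and CCL8 had 43 and 47.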

Other observations

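A further run of chemokine genes lies on chromosome 16, from 57392695 to 57449975, and holds CCL22, CX3CL1 and CCL17. CX3CL1, or fractalkine, is made as a membrane-bound adhesion molecule, and CCL22 and CCL17 attract T helper cells. Summed over the 3 genes, H3K27me3 in DMSO was 0.697 times input (with an exact interval that ended at 0.810), with 319 H3K27me3 and 402 input counts. In MAK683 it was 0.804 times input (from 0.690 to 0.935), and this library held 45.7% of the H3K27me3 counts (from 41.6% to 49.8%), above the 41.0% of the library totals. H3K4me3 was 0.608 times input in DMSO and 0.661 in MAK683. None of 21 measured protein-coding genes within 500 kb reached 1.5 times input in H3K27me3. Medians of the log2 level were -0.77 over the 9 genes before the run and -0.90 over the 12 genes after it.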
